A study of Mus musculus with 22 samples.

Results

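The 10 genes Sox9, Wt1, Amh, Gata4, Cldn11, Clu, Inha, Inhbb, Fshr and Dhh are markers of the Sertoli cell, the somatic nurse cell of the seminiferous tubule, and were read here as a measure of Sertoli cell RNA in sorted germ cell fractions. They are 10 of the 15780 named genes on the arrays, were listed by name with earlier results of these arrays known, and all 10 had a probe set. Male mice aged 2 months gave liver and 3 germ cell fractions, sorted by flow cytometry from suspensions of testicular tubules: spermatids and pachytene spermatocytes of an earlier (pre-mid) and a later (mid-late) stage. Ts43H males, trisomic for the proximal part of chromosome 17, were compared with their t121/D17 euploid male siblings. Each genotype had 3 arrays of pre-mid-pachytene spermatocytes, 3 of spermatids and 3 of liver, and 2 of mid-late-pachytene spermatocytes, so that 16 arrays held germ cells and 6 held liver. RNA from 20 to 30 ng of total RNA went through an amplifying labelling protocol, and nothing in the labels ties arrays to single animals or to pools, so the p-values below measure the spread between these arrays only.

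Sertoli cells line the tubule, hold the germ cells in pockets of their cytoplasm and form the blood-testis barrier with tight junctions that spermatocytes cross early in meiosis. They are the cells of the testis that carry the receptor for follicle-stimulating hormone, and they answer it with inhibin, which acts back on the pituitary. Because germ cells are embedded in them, Sertoli cell fragments can travel with germ cells in a cell suspension. SOX9, WT1 and GATA4 are transcription factors of Sertoli cell identity, AMH, inhibin, DHH and clusterin are secreted, FSHR is the receptor, and CLDN11 builds the tight junction.

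The 10 genes fell into 2 groups. Clu, Cldn11, Inha, Wt1 and Inhbb varied over the 16 germ cell arrays, and 5 of 10 were lower in euploid mid-late-pachytene spermatocytes than at the pre-mid stage by the test (limma's adjusted p under 0.05), where 21.2% of all genes were lower. Sox9, Gata4, Amh, Fshr and Dhh each stayed within a range below 0.5 on the log2 scale over the same 16 arrays, as did 30.3% of all named genes, and none of them passed the test between germ cell fractions. Gata4, Amh, Fshr and Dhh were at 2.47 or below on all of these arrays. Such low, almost constant values are those of genes near the array background, where a change in RNA may not show. The flat genes depend on the scaling: array medians were lower by 0.51 in the euploid mid-late than in the pre-mid stage (difference -0.51), and with each array centred on its median Amh, Gata4, Fshr and Dhh were called higher there, while Clu, Cldn11, Wt1 and Inhbb stayed called lower. Levels below are deposited log2 values, except sums, which were made on the linear scale, and each test compares a gene only with itself. In bulk RNA, fewer Sertoli cells and less Sertoli cell RNA per cell cannot be told apart. Whether all RNA of these genes in the fractions came from Sertoli cells was not tested.

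**Figure D1:**
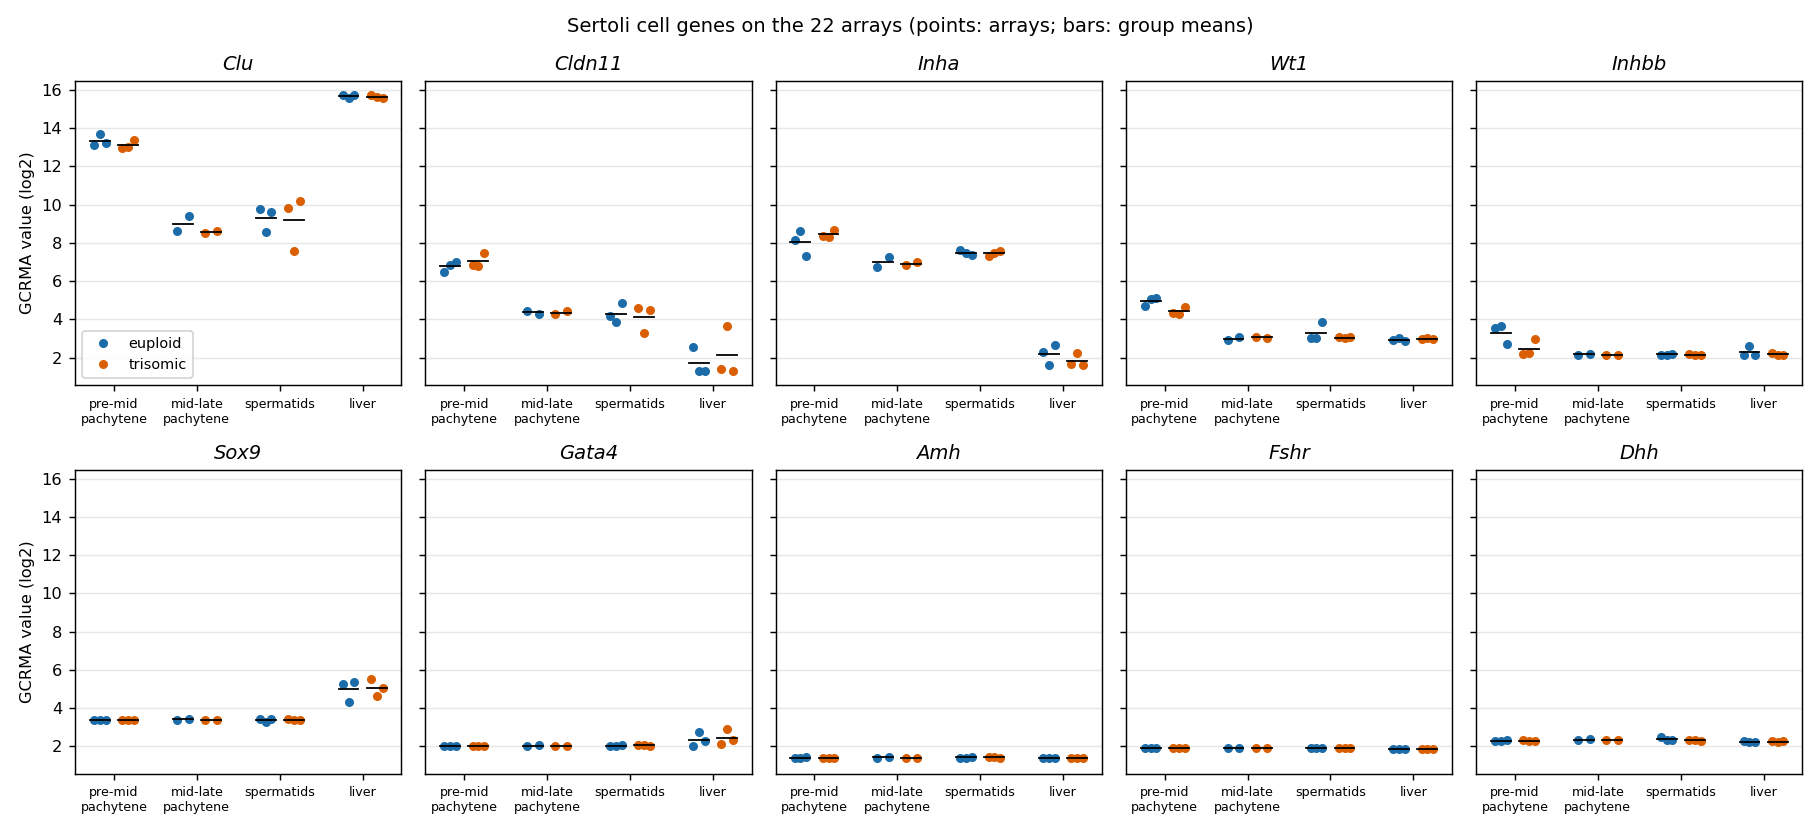
Deposited log2 value of each of the 10 Sertoli cell genes (vertical axis, 1 panel a gene) on the 22 arrays, by cell type and genotype. Points are arrays and bars are group means. Clu, Cldn11 and Wt1 stand higher in all 6 pre-mid-pachytene arrays than in all 10 other germ cell arrays, and the lower row of genes is flat in germ cells.

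Among the transcription factors, Wt1, a zinc finger regulator that Sertoli cells keep into adult life, was the 1 member that varied. Its level was 4.71, 5.06 and 5.12 in euploid and 4.34, 4.30 and 4.66 in trisomic pre-mid-pachytene spermatocytes. It was 2.91 and 3.08 in euploid and 3.07 and 3.05 in trisomic mid-late-pachytene spermatocytes. In spermatids it was 3.03, 3.02 and 3.84 in euploid and 3.07, 3.01 and 3.06 in trisomic arrays. The 6 pre-mid-pachytene arrays lay above the other 10 germ cell arrays, and those 10 lay, except for the third euploid spermatid array at 3.84, beside the liver range of 2.88 to 3.03. The euploid change from pre-mid- to mid-late-pachytene spermatocytes was -1.97 ± 0.19 (log2, SE), a 3.91-fold decrease with adjusted p = 2.05e-07, and that to spermatids was -1.67 ± 0.17 with adjusted p = 2.89e-07. The trisomic changes were -1.37 ± 0.19 (adjusted p = 1.25e-05) and -1.38 ± 0.17 (adjusted p = 2.56e-06).

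Sox9, which starts Sertoli cell fate in the embryo and remains on in adult Sertoli cells, ran from 3.29 to 3.44 over the 16 germ cell arrays, with no fraction apart. Its liver values were higher, at 5.26, 4.31 and 5.37 in euploid and 5.51, 4.63 and 5.04 in trisomic arrays. Bile duct cells of the liver also express Sox9. Gata4, a zinc finger factor of the gonadal soma, ran from 2.01 to 2.06 in germ cells and from 2.01 to 2.93 in liver. All 16 germ cell values of Sox9 lay below its 6 liver values, and those of Gata4 lay beside its lowest liver value and below the other 5.

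Of the secreted factors, Clu had the widest range of the members. Clu encodes clusterin, an extracellular chaperone that is a major product of Sertoli cells and is also made by hepatocytes. Its level was 13.14, 13.69 and 13.22 in euploid and 12.99, 13.01 and 13.39 in trisomic pre-mid-pachytene spermatocytes. In the mid-late stage it was 8.61 and 9.40 in euploid and 8.50 and 8.61 in trisomic arrays. Spermatids had 9.75, 8.59 and 9.63 in euploid and 9.85, 7.59 and 10.22 in trisomic arrays. No pre-mid-pachytene array overlapped any other germ cell array, and in spermatids the second array of each genotype was the lowest of its 3. The euploid change to mid-late-pachytene spermatocytes was -4.34 ± 0.55, 20.3-fold, with adjusted p = 4.13e-06, and that to spermatids was -4.03 ± 0.49, 16.3-fold, with adjusted p = 2.13e-06. In trisomic arrays the same changes were -4.57 ± 0.55 (adjusted p = 2.36e-06) and -3.91 ± 0.49 (adjusted p = 2.96e-06). Liver lay above every germ cell array, from 15.57 to 15.74.

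Inha and Inhbb encode the alpha and the beta B subunit, which join to form inhibin B. Inha was 8.15, 8.61 and 7.32 in euploid and 8.37, 8.30 and 8.65 in trisomic pre-mid-pachytene spermatocytes. It was 6.75 and 7.26 in euploid and 6.83 and 6.99 in trisomic mid-late-pachytene spermatocytes. In spermatids it was 7.61, 7.49 and 7.39 in euploid and 7.33, 7.47 and 7.58 in trisomic arrays. Inha thus stayed at 6.75 or above in every germ cell array, against 1.61 to 2.67 in liver, and its fractions lay closer together than those of Clu or Cldn11. The euploid decrease to mid-late-pachytene spermatocytes was -1.02 ± 0.33 (adjusted p = 0.0157), a call that was lost without the first euploid mid-late-pachytene array (-0.77, adjusted p = 0.151) and without the second euploid pre-mid-pachytene array (-0.73, adjusted p = 0.0763). It was also lost with each array centred on its median (-0.52, adjusted p = 0.151) and in a fit of the compared arrays alone (adjusted p = 0.157). The euploid difference of spermatids from pre-mid-pachytene spermatocytes, -0.53 ± 0.29 with a 95% confidence interval from -1.16 to 0.09, did not pass (adjusted p = 0.151), but did without the third euploid pre-mid-pachytene array (-0.88, adjusted p = 0.0108). In trisomic arrays Inha fell by 1.52 to mid-late-pachytene spermatocytes (SE 0.33, adjusted p = 0.000872) and by 0.98 to spermatids (SE 0.29, adjusted p = 0.00911).

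Inhbb was 3.55, 3.66 and 2.70 in euploid and 2.18, 2.24 and 2.99 in trisomic pre-mid-pachytene spermatocytes. The other 10 germ cell arrays lay between 2.13 and 2.17, beside the liver range of 2.12 to 2.61. All 6 pre-mid-pachytene values were above those 10, in 2 trisomic arrays by a narrow margin. The euploid decreases were -1.14 ± 0.25 to the mid-late stage (adjusted p = 0.00104, and 0.0704 in a fit of the compared arrays alone) and -1.14 ± 0.22 to spermatids (adjusted p = 0.000317). The trisomic differences were -0.32 ± 0.25 and -0.32 ± 0.22 and did not pass (adjusted p = 0.361 and 0.272).

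Amh, the hormone of the fetal and immature Sertoli cell that makes the Müllerian ducts regress and is low in the adult testis, ran from 1.40 to 1.44 in germ cells and from 1.36 to 1.39 in liver. Dhh, the hedgehog ligand by which Sertoli cells signal to Leydig and peritubular cells, ran from 2.28 to 2.47 in germ cells and from 2.22 to 2.27 in liver. Its highest germ cell value, 2.47, was that of the first euploid spermatid array. These spans are small beside the differences of Clu, Cldn11 and Wt1 between fractions.

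Cldn11 encodes claudin 11, the main claudin of the Sertoli cell tight junction, and Fshr the receptor through which follicle-stimulating hormone acts on Sertoli cells. Both belong to mature Sertoli cells. On these arrays the values of Cldn11 varied with the fraction, while those of Fshr stayed between 1.85 and 1.92 on germ cell and liver arrays. Values so low and constant are those of genes near the array background, so they cannot show whether Fshr RNA varied. The contrast is one of measured values only, and the promoters of both genes are shown beside it. The 250 bases before each start, from RefSeq (GRCm38.p6), are chr3:31149670-31149919 on the plus strand for Cldn11, with 63.6% G and C, and chr17:89200676-89200925 on the minus strand for Fshr, with 36.8%. Capitals mark motif matches: in Cldn11 the reverse complement of CCAAT, at 66 to 62 and at 35 to 31 bases before the start, and in Fshr the E-box CACGTG, which reads the same on both strands, at 61 to 56 bases before it.
Cldn11: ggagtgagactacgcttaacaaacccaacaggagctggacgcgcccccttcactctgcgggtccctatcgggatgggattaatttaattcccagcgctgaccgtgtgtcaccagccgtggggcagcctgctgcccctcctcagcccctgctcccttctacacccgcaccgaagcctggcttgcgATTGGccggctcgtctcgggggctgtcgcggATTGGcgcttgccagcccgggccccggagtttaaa
Fshr: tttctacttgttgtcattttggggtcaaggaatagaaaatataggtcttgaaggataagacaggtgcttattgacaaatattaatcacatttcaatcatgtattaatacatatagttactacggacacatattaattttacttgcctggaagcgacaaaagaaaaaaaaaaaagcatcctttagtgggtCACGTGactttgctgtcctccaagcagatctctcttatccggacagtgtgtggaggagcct

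CCAAT was found, on either strand, in 33.8% of the 32851 promoter windows of the same length, and CACGTG in 6.02%. Other motifs were searched on both strands and had no match. These were AGATAA, read by GATA factors and held by 9.99% of all windows, AAGGTCA, read by NR5A1 and held by 4.08%, and AACAAT, read by SOX factors and held by 9.42%. The list also had TGACG, from the response element for cyclic AMP (17.8% of windows), and a long motif of WT1, GCGGGGGCG (2.57% of windows). The CCAAT and E-box motifs were added after those 5 had no match in the windows of Cldn11, Fshr, Inha, Inhbb and Dhh, the 5 members with an entry. A match is a run of letters in the window and not evidence of a bound factor.

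Cldn11 was 6.48, 6.87 and 6.98 in euploid and 6.83, 6.80 and 7.49 in trisomic pre-mid-pachytene spermatocytes. In the mid-late stage it was 4.42 and 4.30 in euploid and 4.28 and 4.43 in trisomic arrays. Spermatids had 4.16, 3.85 and 4.85 in euploid and 4.62, 3.28 and 4.47 in trisomic arrays. As for Clu, the pre-mid-pachytene arrays did not overlap the rest, and the second array of each genotype was the lowest of its spermatid group. The euploid changes were -2.42 ± 0.60, 5.33-fold, to mid-late-pachytene spermatocytes (adjusted p = 0.00297) and -2.49 ± 0.54, 5.61-fold, to spermatids (adjusted p = 0.000811). The trisomic changes were -2.68 ± 0.60 (adjusted p = 0.0013) and -2.92 ± 0.54 (adjusted p = 0.000187). Fshr ran from 1.88 to 1.92 over the 16 germ cell arrays and from 1.85 to 1.88 in liver, so the fraction with the high Cldn11 values had no high Fshr value.

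Counted over the members, the tests between fractions gave 5 of 10 lower in euploid mid-late-pachytene than in pre-mid-pachytene spermatocytes (Clu, Wt1, Cldn11, Inhbb and Inha). In euploid spermatids 4 of 10 were lower than in pre-mid-pachytene spermatocytes (Clu, Cldn11, Wt1 and Inhbb), where 22.8% of all genes were lower. The trisomic arrays gave 4 of 10 lower (Clu, Cldn11, Inha and Wt1) in mid-late-pachytene spermatocytes, with 21.6% of all genes lower, and the same 4 in spermatids, with 23.7% lower. No member was higher in any of the 4 comparisons, in which 29.6%, 30.6%, 25.4% and 29.8% of all genes were higher, in the order given. That count depends on the scaling: with each array centred on its median, 8, 7, 7 and 7 members were called, of which Amh, Fshr and Dhh in all 4 comparisons and Gata4 in the first were higher. The median change of the 10 members was -0.50 and -0.27 in the euploid and -0.16 and -0.15 in the trisomic arrays, in that order, beside medians over all genes of 0.06, 0.04, 0.04 and 0.04. The comparisons to mid-late-pachytene spermatocytes and to spermatids share the pre-mid-pachytene arrays.

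Between spermatids and mid-late-pachytene spermatocytes limma called 0 of 10 members in either genotype, also at an unadjusted p under 0.05, where it called 36.5% of all genes in euploid and 35.3% in trisomic arrays. The differences were 0.31 ± 0.55 for Clu, -0.07 ± 0.60 for Cldn11, 0.30 ± 0.19 for Wt1 and 0.49 ± 0.33 for Inha in euploid arrays. In trisomic arrays they were 0.67 ± 0.55, -0.23 ± 0.60, -0.01 ± 0.19 and 0.54 ± 0.33. For Clu the 95% confidence intervals ran from -0.86 to 1.48 and from -0.50 to 1.84, and without the second trisomic spermatid array Clu was higher in trisomic spermatids by 1.48 (adjusted p = 0.002). Other settings gave calls here. With each array centred on its median 3 members, Amh, Fshr and Dhh, were called in each genotype, all lower in spermatids (-0.30, -0.31 and -0.27 in euploid and -0.24, -0.24 and -0.24 in trisomic arrays), and a fit of the compared arrays alone called Inha higher in trisomic spermatids (0.54, adjusted p = 0.0203). On the deposited scale, pre-mid-pachytene spermatocytes had the highest germ cell levels of Clu, Cldn11, Wt1 and Inhbb, and the difference between the other two fractions did not pass under these settings.

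**Figure D2:**
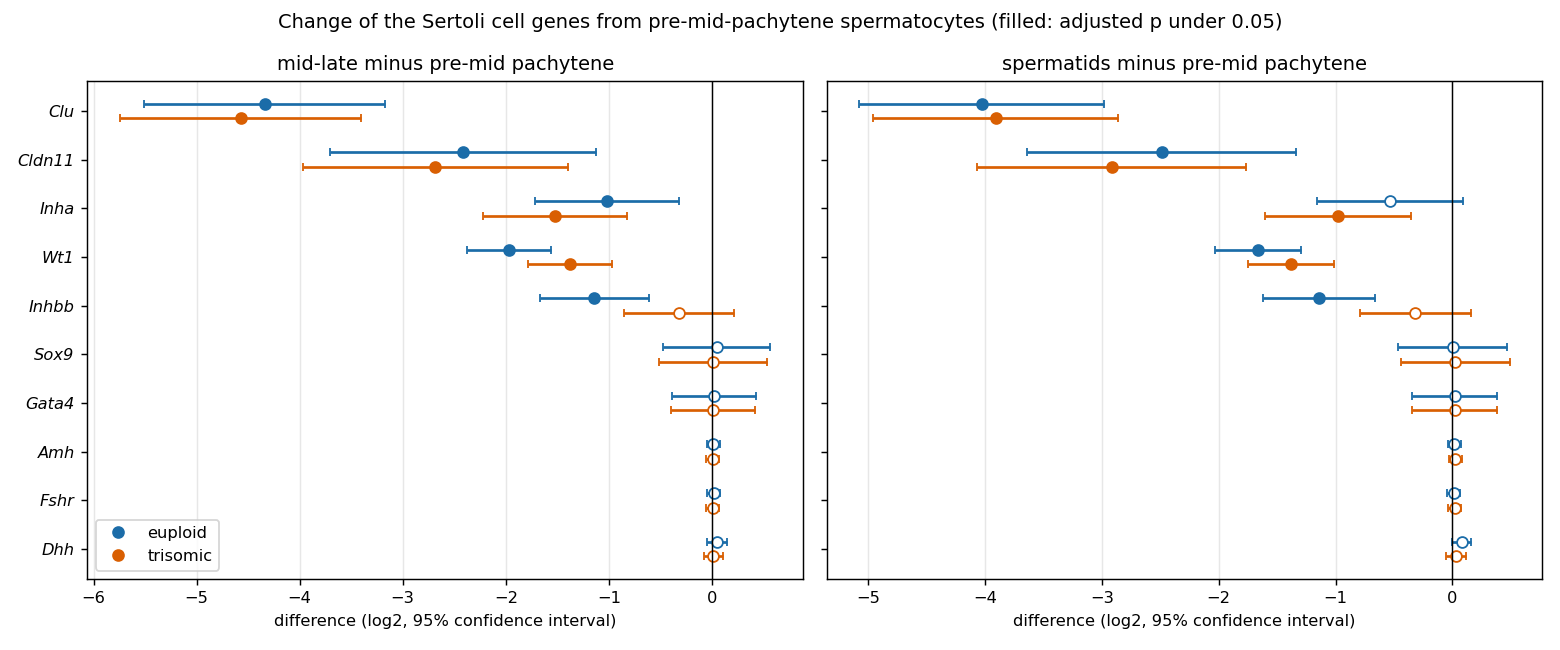
Differences of the 10 Sertoli cell genes between mid-late- and pre-mid-pachytene spermatocytes (left) and between spermatids and pre-mid-pachytene spermatocytes (right), on the log2 scale, with 95% confidence intervals from limma. Filled points passed the test and open points did not. Clu, Cldn11 and Wt1 are filled on the lower side in both genotypes, Clu near -4, and the 5 flat genes sit at 0.

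The members' values were also added on the linear scale, array by array. Probe sets differ in how strongly they bind, so this sum weights the genes by their probes, is no amount of Sertoli cell RNA, and was compared only with itself between arrays. The sum ran from 8615 to 13769 in the 6 pre-mid-pachytene arrays, from 533 to 889 in the 4 mid-late-pachytene arrays and from 418 to 1440 in the 6 spermatid arrays. Clu alone made up 94.3% to 96.4%, 67.6% to 76.1% and 46.1% to 82.5% of it, in that order. The sum thus mostly restates Clu. The second spermatid array of each genotype had the lowest sum of its group, 616 in euploid and 418 in trisomic spermatids, against 1033 to 1440 in the other 4. Clu and Cldn11 were each lowest of their group in those arrays as well, while Inha was not, at 7.49 and 7.47.

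Over the 16 germ cell arrays, the correlation of each varying member with the mean of the other 3 (Pearson's r, with Inhbb left out because no group mean reached 4) was 0.979 for Clu, 0.964 for Cldn11, 0.932 for Wt1 and 0.790 for Inha. These values mostly restate the difference between fractions. On deviations from the group means, r was 0.733 for Clu, 0.758 for Cldn11, 0.409 for Wt1 and 0.103 for Inha. Arrays share their labelling and normalization across genes, so these values are descriptions.

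The 10 genes whose values over the 16 arrays were most like the mean of Clu, Cldn11, Wt1 and Inha were Cst9 (r = 0.993), Aard (0.993), Marcksl1 (0.991), Reep1 (0.989), Ctsl (0.989), Tpd52l1 (0.987), Sparc (0.987), Wwp2 (0.986), Defb19 (0.986) and Tsx (0.986). Cst9, Aard, Ctsl and Tsx are also on the list of other Sertoli cell genes described next. A high r was common: 1183 of 8221 genes that could be ranked (14.4%) had an r of at least 0.9. Members and genes entered if at least 1 germ cell group averaged 4 or more. Wt1, Tpd52l1 and Tsx entered through pre-mid-pachytene spermatocytes alone, so the filter favours genes high in that fraction. The ranking and its overlap with the list are therefore descriptions only.

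A second list holds 30 other Sertoli cell genes, of which 25 could be measured. In euploid mid-late-pachytene spermatocytes 13 of the 25 were lower than in pre-mid-pachytene spermatocytes and 1 was higher, with a median of -0.96, and in euploid spermatids 12 were lower and 1 higher, with a median of -0.63. Over all genes 21.2% were lower and 29.6% higher in the first comparison, and 22.8% and 30.6% in the second. Tsx fell by 5.29 ± 0.37 (log2, SE) to mid-late-pachytene spermatocytes and by 4.76 ± 0.33 to spermatids. Cst9, a cystatin also called testatin, fell by 5.07 ± 0.52 and by 4.32 ± 0.47. Ctsl, the protease cathepsin L, fell by 4.38 ± 0.41 and by 3.93 ± 0.37, and Vim, the intermediate filament vimentin, by 4.34 ± 0.45 and by 3.52 ± 0.40. The exceptions, named after their values were seen, were Lhx9, higher by 0.52 ± 0.12 in mid-late-pachytene spermatocytes, and Fstl3, higher by 1.58 ± 0.24 in spermatids. In trisomic arrays 13 of 25 were lower and 1 higher in both fractions. There 21.6% of all genes were lower and 25.4% higher in mid-late-pachytene spermatocytes, and 23.7% and 29.8% in spermatids. The summed level of the 25 genes ran from 18525 to 32002 in pre-mid-pachytene arrays, from 1536 to 2044 in mid-late-pachytene arrays and from 1442 to 3421 in spermatid arrays.

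Flat genes occurred on this list as well. Sox8, Kitl, Gdnf and Shbg, named after their values were seen, ran from 2.22 to 2.36, from 2.23 to 2.30, from 1.98 to 2.05 and from 1.95 to 2.06 over the 16 germ cell arrays, and from 2.15 to 2.25, 2.18 to 2.23, 1.94 to 1.98 and 1.88 to 1.94 in liver. Kitl and Gdnf encode the growth factors by which Sertoli cells support spermatogonia.

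**Figure D3:**
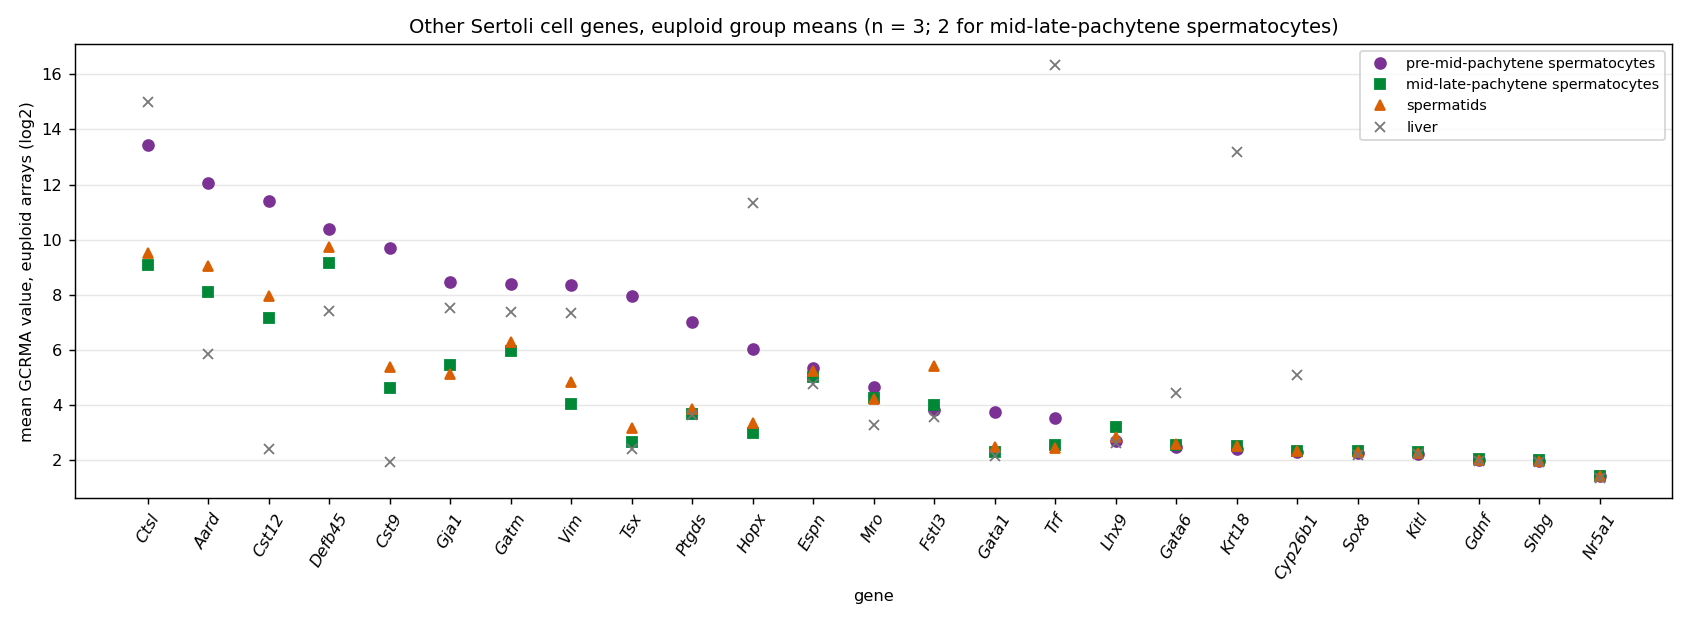
Group means of the 25 other Sertoli cell genes in euploid arrays (log2, vertical axis), ordered by their level in pre-mid-pachytene spermatocytes, with 1 symbol a cell type. Ctsl, Aard, Cst12, Cst9, Vim and Tsx are several units higher in pre-mid-pachytene spermatocytes than in both other germ cell fractions, and the genes at the right lie together near the bottom of the scale.

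Marker lists of the other somatic cells of the testis were counted in the same comparison, euploid mid-late- minus pre-mid-pachytene spermatocytes. In it 21.2% of all genes were lower and 29.6% higher. Of 7 Leydig cell genes limma called 0, also at an unadjusted p under 0.05, and their summed level was 36 to 155 in pre-mid-pachytene, 33 to 65 in mid-late-pachytene and 32 to 287 in spermatid arrays. Of 11 peritubular and stromal genes 2 were lower, Dcn, a matrix proteoglycan (-2.28 ± 0.50), and Acta2, smooth muscle actin (-2.12 ± 0.67), and 1 was higher, the collagen gene Col3a1 (2.82 ± 0.99), named after its value was seen. Of 11 macrophage genes 2 were lower, Mrc1 (-2.50 ± 0.41) and Aif1 (-2.09 ± 0.55), and 1 was higher, Adgre1 (1.67 ± 0.31), and of 10 endothelial genes Egfl7 was lower (-1.13 ± 0.39). Their summed levels were 165 to 489, 2735 to 5248 and 81 to 138 in pre-mid-pachytene arrays, 88 to 422, 530 to 2348 and 71 to 105 in mid-late-pachytene arrays, and 133 to 267, 22813 to 37789 and 293 to 692 in spermatid arrays. Aif1 alone was at 14.79 in euploid spermatids. The macrophage genes Csf1r, C1qa and C1qc, picked after their values were seen, were at 2.10 or below in all 16 germ cell arrays. Of the 11 macrophage genes, 2 had a mean of at least 6 and 7 a mean below 3 in euploid spermatids. In euploid pre-mid-pachytene spermatocytes these counts were 2 and 6.

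Marker lists of germ cells also moved in this comparison, not all in the order of the stages. From euploid pre-mid- to mid-late-pachytene spermatocytes 7 of 11 spermatogonial genes were lower and none higher, among them Sohlh2 (-7.95 ± 0.30), Stra8 (-6.70 ± 0.31), Dazl (-6.69 ± 0.21) and Uchl1 (-5.65 ± 0.31). Early meiotic genes had 7 of 10 lower and 2 (Stag3 and Spo11) higher, pachytene genes 8 of 10 higher and none lower, and elongating spermatid genes 10 of 11 lower and 1 (Odf2) higher. Those 3 genes are named after their values were seen. The summed level of the elongating spermatid genes, markers of a stage after meiosis, was 228772 to 278718 in euploid pre-mid-pachytene arrays. It was 55851 to 77568 in euploid mid-late-pachytene arrays and 374424 to 426254 in euploid spermatid arrays. These genes were thus higher in the earlier than in the later pachytene fraction, and the source of their RNA there was not tested. Over all genes 21.2% were lower and 29.6% higher in this comparison. The part of stage in the values of single Sertoli cell genes was not tested.

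The pathways in which the members act were counted from fixed lists, members included. Beside them, 21.2% of all genes were lower and 29.6% higher in euploid mid-late-pachytene than in pre-mid-pachytene spermatocytes, and 22.8% and 30.6% in euploid spermatids. In inhibin, activin and AMH signalling 8 of 23 genes were lower and 3 higher in euploid mid-late-pachytene than in pre-mid-pachytene spermatocytes. Smad4, the shared partner of receptor-activated SMADs, fell by 5.50 ± 0.26 from 11.17, the receptor Bmpr1a fell by 3.72 ± 0.28, and Smad1 rose by 4.55 ± 0.26. The other two higher genes, the receptors Acvr1b (0.09 ± 0.04) and Acvr1c (0.16 ± 0.06), differed little and are named after their values were seen. Amhr2, the receptor for AMH, was at 11.14 in euploid pre-mid-pachytene spermatocytes and fell by 4.47 ± 0.37, while its ligand gene Amh stayed between 1.40 and 1.44. Spermatids had 7 of the 23 lower and 4 higher than pre-mid-pachytene spermatocytes.

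In signalling by follicle-stimulating hormone 3 of 16 genes were lower and 3 higher in mid-late-pachytene spermatocytes, and 4 were lower and 5 higher in spermatids. Over all genes 21.2% were lower and 29.6% higher in the first comparison, and 22.8% and 30.6% in the second. The counts of this list are therefore no result about the pathway. Of the catalytic subunits of protein kinase A, Prkacb fell by 4.53 ± 0.19 and Prkaca rose by 2.92 ± 0.17 to mid-late-pachytene spermatocytes. The rest, named after their values were seen, were Igf1r (-1.30 ± 0.14) and Adcy9 (-1.63 ± 0.29) on the lower side and Pde4b (3.28 ± 0.42) and Crem (1.14 ± 0.22) on the higher. Hedgehog signalling had 1 of 14 lower and 1 higher: Sufu, an inhibitor of the pathway, fell by 2.02 ± 0.41 to mid-late-pachytene spermatocytes and was 2.65 ± 0.36 higher in spermatids than at the pre-mid stage, and Shh rose by 0.31 ± 0.08 in mid-late-pachytene spermatocytes. Of 13 tight junction genes 5 were lower and 1 higher in mid-late-pachytene spermatocytes. Besides Cldn11, F11r, a junctional adhesion molecule, fell by 2.27 ± 0.16 and Marveld2, tricellulin, by 1.75 ± 0.27, and Jam2 rose by 2.55 ± 0.25. The remaining calls, Tjp1 (-1.55 ± 0.22) and Cgn (-1.44 ± 0.35), are named after their values were seen.

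Among 16 genes of sex determination, the pathway that sets Sertoli cell fate in the embryo, 3 were lower and 5 higher in mid-late-pachytene spermatocytes. Nr0b1, the nuclear receptor DAX1, fell by 3.46 ± 0.43 and Ptgds, prostaglandin D synthase, by 3.34 ± 0.48, whereas Emx2 rose by 7.16 ± 0.12 from 2.79 and Zfpm2, the GATA4 partner FOG2, by 3.44 ± 0.43. The third lower gene was Wt1, and the other higher genes, named after their values were seen, were Lhx9, Map3k4 (0.94 ± 0.15) and Six4 (0.12 ± 0.05). In spermatids 3 were lower and 2 higher. Over all genes 21.2% were lower and 29.6% higher in mid-late-pachytene spermatocytes, and 22.8% and 30.6% in spermatids. These counts are therefore no result about the pathway.

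Against liver, the somatic tissue of the series, the members split by gene. In euploid pre-mid-pachytene spermatocytes 4 of 10 were higher than in euploid liver, with 31.4% of all genes higher, and 2 were lower, with 27.4% of all genes lower. With each array centred on its median all 10 were called, 4 higher and 6 lower, since Amh, Fshr and Dhh turned sign (-0.39, -0.39 and -0.37) and Gata4 was at -0.74. Inha was higher by 5.83 ± 0.29, Cldn11 by 5.07 ± 0.54, Wt1 by 2.02 ± 0.17 and Inhbb by 1.01 ± 0.22, and Clu (-2.34 ± 0.49) and Sox9 (-1.61 ± 0.22) were lower. Mid-late-pachytene spermatocytes kept 2 higher, Inha (4.81 ± 0.33) and Cldn11 (2.66 ± 0.60), with 44.3% of all genes higher, and 2 lower, Clu (-6.68 ± 0.55) and Sox9 (-1.57 ± 0.25), with 28% lower. In spermatids Inha (5.30 ± 0.29), Cldn11 (2.58 ± 0.54) and Dhh (0.13 ± 0.04) were higher, with 40.3% of all genes higher, and Clu (-6.36 ± 0.49) and Sox9 (-1.61 ± 0.22) were lower, with 30.9% lower. The Dhh call was lost without the first euploid spermatid array (adjusted p = 0.0523), and its sign turned with each array centred on its median (-0.085, adjusted p = 0.252). Inha and Cldn11 were thus above liver in all 3 germ cell fractions, at a lower Cldn11 level in the later fractions.

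Whether trisomic and euploid fractions differed in RNA of the Sertoli cell genes was asked within each cell type, for genes whose mean there reached 4 or more. In pre-mid-pachytene spermatocytes 4 members were tested and limma called 0, with 10.3% of all tested genes called and 1 member (Wt1) at an unadjusted p under 0.05. The trisomic minus euploid differences were -0.53 for Wt1 (95% confidence interval -0.92 to -0.14, adjusted p = 0.0774), -0.22 for Clu (-1.19 to 0.75), 0.26 for Cldn11 (-0.80 to 1.33) and 0.41 for Inha (-0.19 to 1.02). The 3 trisomic Wt1 values, 4.34, 4.30 and 4.66, lay below the 3 euploid ones, 4.71 to 5.12, and without the third trisomic array the difference was -0.64 and passed (adjusted p = 0.0478). Inhbb was below the minimum; with every gene tested it was lower in trisomic pre-mid-pachytene spermatocytes by 0.84 (difference -0.84, SE 0.22, adjusted p = 0.0453), with overlapping arrays.

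Markers of round spermatids moved in the same comparison: 5 of 11 were lower in trisomic pre-mid-pachytene spermatocytes, Catsper3 (-1.95 ± 0.48), Tex21 (-1.69 ± 0.30), Acrv1 (-1.65 ± 0.31), Lyzl1 (-1.52 ± 0.42) and Spaca7 (-1.22 ± 0.37), and none higher. Over all tested genes 10.3% were called there in either direction. Round spermatid markers were not the only germ cell list with unlike values there. The median of the spermatogonial genes was 3.99 to 5.66 in euploid and 2.98 to 4.01 in trisomic pre-mid-pachytene arrays. Their summed level went the other way, with 26269 to 30634 in euploid and 33079 to 34704 in trisomic arrays. The part of these germ cell markers in the Wt1 and Inhbb values was not tested. Of the other 25 Sertoli cell genes 13 were tested there and limma called 0, with 1 at an unadjusted p under 0.05 and a median difference of 0.00.

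In mid-late-pachytene spermatocytes 0 of 3 tested members were called, with 0.965% of all genes called, and in spermatids 0 of 3, with 0.821%, and none had an unadjusted p under 0.05. The Clu differences were -0.46 (95% confidence interval -1.64 to 0.73) and -0.10 (-1.08 to 0.87), those of Cldn11 -0.01 (-1.31 to 1.30) and -0.17 (-1.23 to 0.90), and those of Inha -0.09 (-0.83 to 0.65) and -0.04 (-0.64 to 0.57). In liver 0 of 2 tested members were called, with 9.55% of all genes called, Sox9 differing by 0.08 (-0.39 to 0.55) and Clu by -0.04 (-1.02 to 0.95). With the liver arrays paired by replicate number, limma also called 0 of the 2 (adjusted p = 0.809 and 0.963). Of the other 25 Sertoli cell genes 11 were tested in each of both fractions and limma called 0, with 2 at the mid-late stage and 0 in spermatids at an unadjusted p under 0.05. The intervals above leave room for genotype differences in germ cells as large as -1.64 for Clu and 1.33 for Cldn11 on the log2 scale. Of the other Sertoli cell genes, Ptgds was higher in trisomic liver by 2.12 ± 0.41 (adjusted p = 0.00254).

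The genotype difference itself was compared between germ cell fractions as an interaction. No member was called by limma in mid-late- against pre-mid-pachytene spermatocytes, in spermatids against pre-mid-pachytene spermatocytes or in spermatids against mid-late-pachytene spermatocytes, where 0.545%, 0.45% and 0.234% of all genes were called. At an unadjusted p under 0.05 there were 2 members, Wt1 (0.59 ± 0.27) and Inhbb (0.82 ± 0.35), in the first, 1, Inhbb (0.83 ± 0.32), in the second, and 0 in the third. The lower trisomic Wt1 and Inhbb values of pre-mid-pachytene spermatocytes were therefore not shown to differ from the genotype differences in the later fractions.

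**Figure D4:**
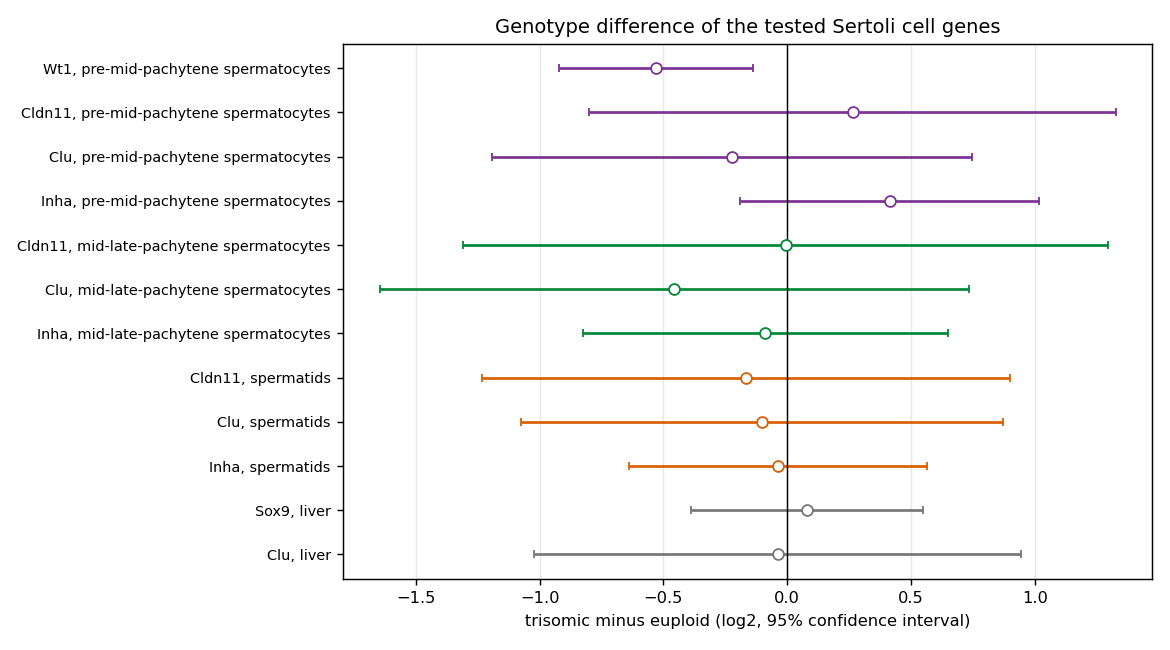
Trisomic minus euploid difference (log2, horizontal axis) of each Sertoli cell gene tested within a cell type, with 95% confidence intervals from limma, 1 row a gene and cell type. Open points did not pass the test. All 12 are open, and the Wt1 interval in pre-mid-pachytene spermatocytes, from -0.92 to -0.14, is the 1 that does not reach 0.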

How the data were processed

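RNA of the 22 samples was measured on Affymetrix arrays with 1 probe set a gene. The deposited values are log2 intensities that the authors computed with GCRMA, per the submitters' processing notes; its version and which arrays were normalized together are not given in the sources used here. GCRMA subtracts a background modelled on GC content, so genes near it take almost constant values, and a log2 difference there understates a change. Of 16539 probe sets, 15780 carried 1 gene symbol and 759 none; the latter were not used. RefSeq (GRCm38.p6) matched 15752 genes.

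With limma 3.58.1 in R 4.3.3 (tables in python 3.11.15), 1 fit of 8 group means to all 22 arrays was tested two-sided with Benjamini-Hochberg adjustment at 0.05: genotype for genes averaging 4 or more in the cell type, fractions and interactions over all 15780 genes. The step was tested on simulated data. The number of arrays limits the precision. Array medians ran from 4.10 to 4.69, and arrays of a group correlated across genes at 0.988 to 0.997.

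All 10 members are named; of the other lists, at most 4 called genes a comparison, those with the largest change and no overlap between arrays. The genes most like the members are the 10 with the highest Pearson's r among genes averaging 4 or more in a germ cell group, with an SD of at least 0.5. Members and lists were chosen with earlier results of these data known. Alternatives were another filter, scaling or spread model, fewer arrays and the replicate number as a block. In liver, same-numbered arrays of the genotypes deviated together (r from 0.112 to 0.314 in all 3 pairs). A fit with those numbers as pairs is therefore given for the tested members beside the main fit, which has no pairs. The liver intervals and the Ptgds difference are from the main fit.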

Additional observations from a re-analysis of the deposited data

How the results depend on the processing

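Of 103 counts of called members with 1 array left out, 101 stayed within 1.5 times the reported count, and of 100 under the other alternatives 88 did. A count of 0 that stayed 0 was included as unchanged, so these shares say little about the counts above 0. Leaving out 1 array gave 4 to 5 members in both euploid comparisons with pre-mid-pachytene spermatocytes and 4 in both trisomic ones. Centring each array on its median takes the difference of array medians, -0.51 between euploid mid-late- and pre-mid-pachytene spermatocytes, from every gene's difference, so that genes flat before come out higher there. Centred, the members called were 8 there, 7 for euploid spermatids minus pre-mid-pachytene spermatocytes, 7 and 7 for the same trisomic comparisons, 3 for spermatids minus mid-late-pachytene spermatocytes in each genotype, and 10 for pre-mid-pachytene spermatocytes minus liver. The sign turned under centring for Amh and Dhh in euploid spermatids minus mid-late-pachytene spermatocytes (-0.30 and -0.27), and for Amh, Fshr and Dhh in the trisomic one (-0.24, -0.24 and -0.24), in pre-mid-pachytene spermatocytes minus liver (-0.39, -0.39 and -0.37) and in spermatids minus liver (-0.17, -0.18 and -0.085). Clu, Cldn11, Wt1 and Inhbb stayed called as lower in both euploid comparisons with pre-mid-pachytene spermatocytes when centred, and Inha in mid-late-pachytene spermatocytes was at -0.52 (adjusted p = 0.151).

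With only the arrays compared, 3 members were called for euploid mid-late- minus pre-mid-pachytene spermatocytes (Inha and Inhbb lost, adjusted p = 0.157 and 0.0704) and 1 (Inha) for trisomic spermatids minus mid-late-pachytene spermatocytes. A trend and robust spread called 7 for mid-late-pachytene spermatocytes minus liver, and a minimum mean of 4 called 3 of 3 tested for spermatids minus liver. With no filter, 1 member (Inhbb) was called for genotype in pre-mid-pachytene spermatocytes. Leaving out 1 array gave 0 to 1 for that comparison and 0 to 1 for trisomic spermatids minus mid-late-pachytene spermatocytes. With the replicate block, the counts were 5 and 4 for the euploid and 4 and 4 for the trisomic comparisons with pre-mid-pachytene spermatocytes, 0 for every genotype comparison, and no call changed. Outside liver the same-numbered arrays share only a number (r from -0.284 to 0.389). The cause was not tested for the changes without centring. Groups of 2 or 3 arrays limit what a missed call says.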
